A study of Mus musculus with 9 samples.

Results

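The regions described are the Glis3 binding peaks that lie inside genes, away from gene starts and outside dense runs of peaks. They number 5398 of the 21254 peaks (25.4%) called in mouse pancreatic islets. A peak was taken when its midpoint fell inside a gene span of the count table, more than 1 kb from the 5′ end of every gene, and outside any chain of 3 or more such distal peaks with close neighbouring midpoints. The largest gap between midpoints that joined a chain was 12488 bp and the smallest that did not was 12510 bp. The other peaks were 10618 within 1 kb of a gene 5′ end, 1017 in distal chains and 4221 scattered between genes. No peak height or expression value entered this choice.

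The peaks came from 1 chromatin immunoprecipitation library of hand-picked islets of mice aged 8 weeks (Glis3-eGFP), in which an antibody to GFP captured the tagged protein. They have no replicate. RNA was sequenced from islets of 4-week-old mice, 4 control libraries (Glis3fl/fl) and 3 libraries labelled knockout (Pdx1-Cre;Glis3fl/fl). All 7 carried the floxed allele, and no group carried Pdx1-Cre without it, so effects of the driver and of the deletion cannot be told apart. The promoter of Pdx1 is active across the early pancreatic epithelium, so the driver is not limited to beta cells. The groups are used here to ask how genes that hold an intragenic peak differ in RNA between these islets.

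Glis3 is a Krüppel-like zinc finger transcription factor related to the Gli proteins of Hedgehog signalling. It binds G-rich sites, and in the pancreas it is known for its part in the formation of endocrine cells and in insulin gene transcription. Regulatory elements inside genes can act on the gene that holds them or on a neighbour, and some mark alternative start sites.

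Some members could be shown as sequence, because they touched a RefSeq start that differs from the 5′ end in the count table. Of 5211 members compared, 528 (10.1%) lay within 1 kb of such a start, 418 at another start of their own host and 110 at a start of another gene. Of these, 122 had at least 100 bases of printable sequence before the start. The Glis consensus TGGGGGGT occurred on either strand in 2 of the 122, in Frmd4b and Vwa5b2, and 13 held a run of 6 G or 6 C. The sequences below are the parts of 4 members that lie upstream of the RefSeq start, from RefSeq promoter windows of GRCm38.p6 (mm10), and the choice was made with their values known. Capitals mark matches on either strand to the Glis consensus, its short form TGGGGGG, a run of 6 G, the E-box CAGATG or the MAF motif TGCTGA. Frmd4b stands for the consensus, Dact2 for the short form, and Prlr and G6pc2 for beta cell genes with the other motifs.
Frmd4b (chr6:97487821-97487985, minus strand): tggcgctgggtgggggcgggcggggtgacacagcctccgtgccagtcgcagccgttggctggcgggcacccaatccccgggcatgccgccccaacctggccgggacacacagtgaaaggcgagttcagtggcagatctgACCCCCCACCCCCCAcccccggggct
Dact2 (chr17:14202243-14202435, plus strand): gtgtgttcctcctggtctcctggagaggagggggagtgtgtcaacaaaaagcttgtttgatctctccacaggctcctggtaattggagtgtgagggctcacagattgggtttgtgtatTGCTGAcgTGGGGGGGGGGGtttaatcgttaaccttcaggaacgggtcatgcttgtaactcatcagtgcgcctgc
Prlr (chr15:10223720-10223905, plus strand): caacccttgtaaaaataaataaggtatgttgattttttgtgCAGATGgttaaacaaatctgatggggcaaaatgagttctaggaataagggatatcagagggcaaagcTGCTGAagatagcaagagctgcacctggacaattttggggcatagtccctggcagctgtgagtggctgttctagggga
G6pc2 (chr2:69219728-69219927, plus strand): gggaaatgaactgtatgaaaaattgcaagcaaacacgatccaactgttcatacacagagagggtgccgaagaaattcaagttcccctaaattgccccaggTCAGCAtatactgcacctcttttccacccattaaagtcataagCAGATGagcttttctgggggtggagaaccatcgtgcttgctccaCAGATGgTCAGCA

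The Frmd4b member lay 130 kb into its host, at another start of that gene, and its capitals are overlapping copies of the reverse complement of the consensus. The Dact2 member lay 1496 bp from the 5′ end of Dact2, at the start of the gene Gm34510 on the other strand. The Prlr and G6pc2 members lay 46.6 and 8.75 kb into their hosts, each at a start of the same gene, and held E-box and MAF motif matches but no Glis match. Over the 45 members that lay wholly inside a window, 1 (2.22%) held the consensus, against 10 of 830 peaks at gene 5′ ends and 1.10% of 32843 promoter stretches of the same 200 bases. The run of 6 G was in 8.89%, 18.3% and 14.1%, and the E-box CAGATG in 15.6%, 5.78% and 11.6%, in that order. With 45 members, a single match is 2.22% of them, and these members sit at RefSeq starts and do not stand for the others.

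Of the host genes of these sequences, Dact2 and Prlr fell. Dact2, Prlr and Frmd4b also have a peak within 1 kb of their own 5′ end, and G6pc2 does not. Levels are given in CPM (counts per 1e6 counts of a library, after normalisation) and changes as log2 of labelled knockout over control. Dact2, a regulator of Wnt and Nodal signalling, stood at 43.61, 47.47, 50.29 and 42.31 CPM in controls 1 to 4 and at 18.93, 20.65 and 19.31 CPM in labelled knockouts 1 to 3. The groups did not overlap, and Dact2 fell by 1.22 on the log2 scale (SE 0.13, edgeR adjusted p = 1.91e-05, Benjamini-Hochberg). Prlr, the prolactin receptor gene with 5 members, stood at 143.0, 168.8, 223.7 and 254.4 CPM in controls and at 73.88, 119.7 and 101.1 CPM in the labelled knockouts. All 3 labelled knockouts were below every control (log2 −1.01, SE 0.21, edgeR adjusted p = 0.00567). G6pc2, the islet glucose-6-phosphatase gene, was at 1941 ± 583 CPM (SD, n = 4) and 1302 ± 277 CPM (SD, n = 3) with overlapping groups (log2 −0.58, edgeR adjusted p = 0.0930, or 0.0374 without control 3, and 0.0280 to 0.437 over the alternatives). Frmd4b was at 20.3 ± 1.49 and 18.1 ± 4.53 CPM and did not pass the test (edgeR adjusted p = 0.566).

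Members were spread thinly over many genes. They lay in 3379 of 25611 genes (13.2%). Of these hosts 2276 held 1 member, 633 held 2, 346 held 3 or 4 and 124 held 5 or more. No other distal peak was linked to 4063 members (75.3%), and 1335 were linked to 1 other. In 625 pairs both peaks were members, 5432 bp apart at the median (451 to 12488 bp), and 612 of these pairs shared a host. The median distance from a member to the nearest peak of any kind was 17.3 kb. At the limits of the rule, 142 members lay 1000 to 1200 bp from a 5′ end, while 267 intragenic peaks at 800 to 1000 bp were left out, and 596 intragenic peaks were left out as parts of chains.

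Inside their hosts the members were placed almost evenly along the span but not evenly by distance. When spans were cut into 10 equal parts, each part held 9.34% to 11.3% of members. The quartiles of distance from the host's 5′ end were 11.3, 35.9 and 105 kb, and 12.6% of members lay within 5 kb. For 3508 members in 1 span (66.2%) the nearest gene 5′ end was the host's own, and for 1790 it was another gene's. Exons and introns were not separated here.

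Per megabase of gene span, members were densest near the 5′ end of expressed genes. Among genes tested for expression, the density was 11.1 members per Mb at 1 to 5 kb from the gene's own 5′ end, 8.55 at 5 to 10 kb, 6.69 at 25 to 50 kb and 3.81 beyond 250 kb. Over all distances it was 6.51 per Mb in tested genes and 2.14 per Mb in genes with too few counts to test. With tested genes cut into 4 equal groups by control level, the density was 3.80, 5.32, 7.03 and 10.8 per Mb from the lowest to the highest. The excess close to the 5′ end was in genes without a Glis3 peak at their own 5′ end, with 21.2 per Mb at 1 to 5 kb, against 7.23 in genes with one. Without members near other RefSeq starts these densities were 15.3 and 5.82. Chromosome X held 1.27 members per Mb of distal gene span (54 members), against 5.69 over the autosomes, which ranged from 4.32 on chromosome 3 to 8.12 on chromosome 11. These densities are descriptions of 1 peak list, with no test.

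**Figure D1:**
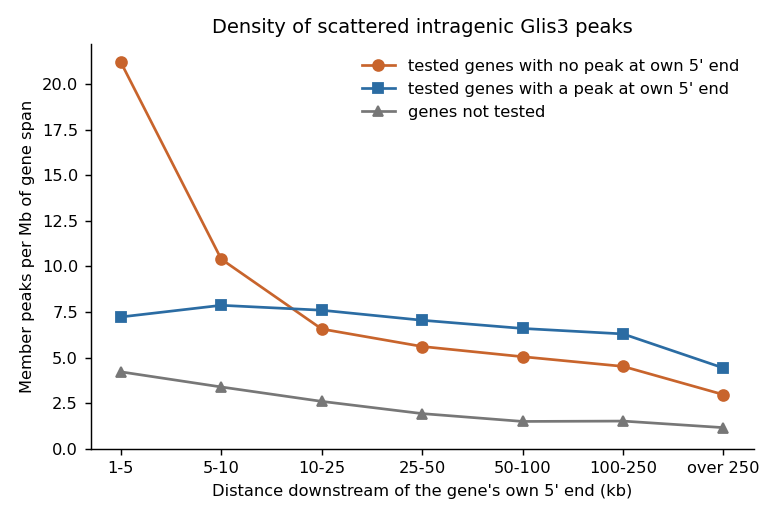
Members per megabase of gene span (y axis) in 7 bins of distance from the gene's own 5′ end (x axis, kb), for tested genes without a peak at their 5′ end (circles), tested genes with one (squares) and genes not tested (triangles). The circles start at 21.2 per Mb at 1 to 5 kb and the squares at 7.23, and all series are lowest beyond 250 kb.

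The hosts were mostly expressed protein-coding genes. Of the 3379 hosts, 93.9% were protein coding in RefSeq, against 83.3% of all genes, and 2948 (87.2%) had enough counts to be tested, against 56.7%. A Glis3 peak within 1 kb of their own 5′ end was held by 69.4% of tested hosts and 71.2% of all tested genes. Total counts per library ran from 12099365 to 48054551. The level of Glis3 itself was not lower in the labelled knockouts, and a whole-gene count does not check an exon deletion. Glis3 itself holds 6 members, 9.95 to 381 kb from its 5′ end, and has a peak within 1 kb of that end. It was at 39.53, 46.77, 31.23 and 33.55 CPM in controls and at 52.05, 52.74 and 57.75 CPM in the labelled knockouts, with no overlap (log2 0.52, SE 0.14, edgeR adjusted p = 0.0257). With the replicate number as a block the edgeR adjusted p was 0.0505, and without control 3 or 4 or labelled knockout 1 or 3 it was 0.0945, 0.0850, 0.0501 and 0.117 (0.00948 to 0.117 over the alternatives).

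Of the 10 cell types with a marker list, the marker sums of duct, beta and gamma cells did not overlap between groups, and those of the other types, acinar cells included, did. The summed level of 10 acinar markers was 560 to 3170 CPM in controls and 1721 to 9540 CPM in labelled knockouts, with 0 of 8 tested markers called by edgeR or DESeq2 (0 at an unadjusted edgeR p under 0.05), 1 marker at 0 in every library and overlapping groups. The sum of 6 duct markers was 253 to 308 CPM in controls and 770 to 954 CPM in labelled knockouts, without overlap, with 1 of 5 tested markers called higher and none at 0 in every library. The sum of 6 beta cell markers was 327132 to 548443 CPM in controls and 187821 to 297591 CPM in labelled knockouts, and 4 of them were called lower and 1 higher. The sum of 2 gamma cell markers was 7843 to 14333 CPM in controls and 1918 to 2561 CPM in labelled knockouts, and both were called lower. The part of these shifts in the results on host genes was not tested, and in bulk islets fewer cells of a type and less RNA per cell cannot be told apart.

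Host genes were called lower more often than tested genes at large. At an edgeR adjusted p under 0.05 over all 14529 tested genes, 318 of the 2948 tested hosts (10.8%) were lower in the labelled knockouts and 322 (10.9%) were higher. Over all tested genes 5.25% were lower and 8.73% higher, and over the 11581 genes without a member 3.84% and 8.17%. The groups did not overlap in 33.5% of hosts, against 26.6% of all tested genes. Changes of at least 2-fold were seen in 100 of the hosts called lower and 158 of those called higher, and of at least 4-fold in 22 and 55. Fold sizes were not counted for other genes, so these counts do not set hosts apart. Over all tested genes higher calls also outnumbered lower ones, 1268 against 763. The median log2 change was −0.08 in hosts and 0.01 over all tested genes. With scaling by library size alone, which moved the median of all genes from 0.007 to 0.175, 163 hosts were lower and 396 higher, and the share of host calls that were higher went from 50.3% to 70.8% (from 62.4% to 85.1% over all genes).

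The share of lower calls was larger in hosts with more members. It was 9.11% with 1 member, 72 of 575 with 2, 14.5% with 3 or 4 and 18.9% with 5 or more (23 of 122). The share of higher calls was 10.7%, 9.22%, 13.6% and 15.6%. Hosts with more members were also longer and more highly expressed, with median spans of 42.1, 84.6, 173 and 317 kb and median levels of 20.2, 23.5, 24.4 and 35.4 CPM.

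A peak at the gene's own 5′ end went with a different balance of calls. Of the 2045 tested hosts with both a member and a peak at their 5′ end, 255 were lower and 198 (9.68%) higher. Of the 903 with a member and no such peak, 6.98% were lower and 13.7% higher. Among genes without a member, 4.41% were lower and 7.07% higher with a peak at the 5′ end, and 2.41% and 10.9% without one. Hosts without a peak at the 5′ end had a median of 8.51 CPM, against 28.0 CPM in those with one. Among 189 tested genes that hold a clustered distal peak, some of them also hosts, 16.9% were lower and 6.88% higher. In the 92 of these without a member the shares were 15.2% and 8.70%. None of these differences between classes was tested.

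**Figure D2:**
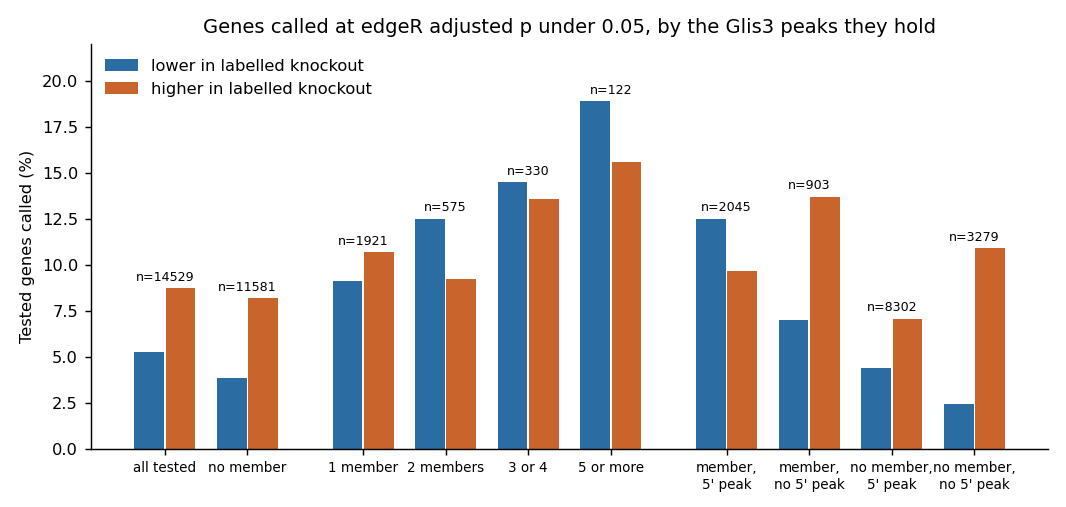
Percent of tested genes called lower or higher in the labelled knockouts (y axis) for all tested genes, genes without a member, hosts by number of members, and genes split by a member and a peak at their own 5′ end (x axis, with the number of tested genes above each pair of bars). The lower share goes from 9.11% with 1 member to 18.9% with 5 or more, and is 2.41% in genes with neither kind of peak.

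The larger lower share of hosts was also seen within bins of gene length and, separately, within bins of level. In each of 6 bins of gene span and each of 5 bins of mean CPM, the percent called lower was larger in hosts than in genes without a member. For spans of 25 to 50 kb it was 13.3% of 571 hosts and 4.68% of 2201 other genes, and for levels of 20 to 80 CPM it was 14.2% and 6.45%. The same held in all 6 span bins when hosts and other genes both had a peak at their own 5′ end. Length and level were not matched together, and the mean CPM included the labelled knockouts. In the 25 to 50 kb bin the median level was 26.1 CPM in hosts and 16.3 CPM in other genes. In the 20 to 80 CPM bin the median span was 67.3 kb in hosts and 19.6 kb in other genes. For higher calls, hosts exceeded other genes in all 6 span bins but in 3 of 5 level bins, and above 80 CPM 15.6% of hosts and 21.8% of other genes were higher.

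**Figure D3:**
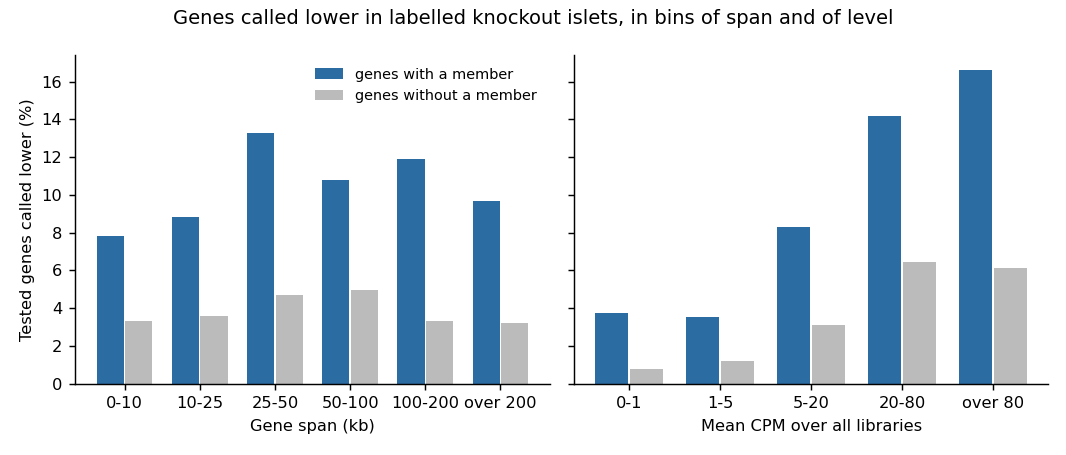
Percent of tested genes called lower in the labelled knockouts (y axis) in bins of gene span (left, kb) and of mean CPM over all libraries (right), for genes with a member and genes without. In every bin the bar of genes with a member is the taller one, as in the 25 to 50 kb bin with 13.3% against 4.68%.

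Where a member lay nearer to another gene's 5′ end than to its host's, more of the hosts than of those nearest genes were called. Of 1038 tested hosts of such members 10.5% were lower and 11.6% higher. Of the 713 tested genes whose 5′ ends were nearest 6.87% were lower and 8.13% higher, and of the 578 of them that host no member 5.02% and 7.27%. These classes also differed in span and level, with median spans of 108 kb in the hosts, 15.7 kb in the nearest genes and 13.3 kb in those without a member. The median levels of the last 2 classes, 13.0 and 11.7 CPM, were below that of the hosts, and the part of this in the shares was not tested. By distance of the nearest member from the host's 5′ end, the lower share was 9.46% at 1 to 5 kb, 13.0% at 5 to 10 kb, 92 of 734 at 10 to 25 kb, 11.7% at 25 to 50 kb and 7.86% beyond. Hosts with a member near another RefSeq start were lower in 8.71% and higher in 8.28%, and the other hosts in 11.2% and 11.4%.

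Called hosts that averaged 1 CPM or more and whose groups did not overlap, apart from predicted genes, numbered 298 that fell and 298 that rose. A peak at the own 5′ end was present in 241 of those that fell (80.9%) and 189 of those that rose (63.4%). Over all tested genes the share was 71.2%. The split was alike in called genes without a member, counted without those conditions on level, overlap and name. There, 366 of 445 lower calls and 587 of 946 higher calls had such a peak, so it is not particular to hosts. The 10 largest falls held 18 members, and 6 of these 10 genes had a peak at their 5′ end (Kcnj12, Epha8, Gad1, St8sia1, Adora1 and Pitpnm3). The 10 largest rises held 17 members, and 0 of these 10 had one. The 1 CPM minimum was a mean over all libraries, so genes near absent from controls could enter through the labelled knockouts alone. Tested hosts without a peak at their 5′ end had a median of 8.51 CPM, against 28.0 CPM in those with one. The part of level and of this choice in these counts was not tested.

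Kcnj12, an inward rectifier potassium channel gene, fell most. Its members lie at chr11:61038299-61038498 and chr11:61042749-61042948, 15.8 and 20.3 kb from its 5′ end, and another peak lies within 1 kb of that end. It stood at 10.31, 12.37, 11.51 and 14.88 CPM in controls and at 0, 0.2160 and 0.4872 CPM in the labelled knockouts, where it had 16 counts in all. No labelled knockout came near a control (log2 −5.52, SE 0.48, edgeR adjusted p = 4.09e-06), and without labelled knockout 3 the log2 change was −6.50. T2 has 2 members 43.5 and 44.7 kb from its 5′ end. It went from 24.8 ± 6.85 to 1.24 ± 0.938 CPM (log2 −4.24, or −5.06 without labelled knockout 3). Epha8, an ephrin receptor gene with 1 member at 11.3 kb, went from 2.90 ± 0.741 to 0.206 ± 0.211 CPM (log2 −3.95, or −4.99 without labelled knockout 1).

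Gad1 encodes a glutamate decarboxylase that makes GABA, a transmitter that beta cells also hold. It has a peak 0.260 kb from its 5′ end and members at 11.5, 30.4 and 36.5 kb. It was at 94.74, 72.25, 73.79 and 97.64 CPM in controls and at 2.153, 4.881 and 9.876 CPM in the labelled knockouts. Every labelled knockout was far below every control (log2 −3.86, SE 0.45, edgeR adjusted p = 0.00154), and without labelled knockout 3 the log2 change was −4.55. St8sia1, a ganglioside sialyltransferase gene with members at 5.93 and 25.8 kb, was at 12.68, 14.43, 16.99 and 19.57 CPM in controls and at 1.411, 0.4320 and 4.517 CPM in the labelled knockouts. The groups did not overlap (log2 −2.88, edgeR adjusted p = 0.0154), but the call was lost without labelled knockout 1 (edgeR adjusted p = 0.0919) and when genes with low counts were kept in (0.0525), and the log2 change was −4.26 without labelled knockout 3. Over its 14 alternatives the adjusted p ran from 9.10e-05 to 0.0919.

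The other 5 of the 10 largest falls were in Adora1, Trpm5, Pitpnm3, Itpkb and Mlph. Adora1, the adenosine A1 receptor gene, has 1 member at chr1:134232891-134233090, 2.47 kb from its 5′ end, and was at 24.3 ± 3.18 CPM in controls and 4.54 ± 0.525 CPM in the labelled knockouts. It fell by 2.42 on the log2 scale (SE 0.19, edgeR adjusted p = 1.83e-06). Trpm5, a calcium-activated cation channel gene with 1 member at 17.2 kb, stood at 163.0, 151.1, 128.0 and 174.8 CPM in controls and at 20.49, 23.80 and 48.67 CPM in the labelled knockouts. All of the labelled knockouts were below every control (log2 −2.31, SE 0.28, edgeR adjusted p = 0.000351). Pitpnm3, a membrane-associated phosphatidylinositol transfer protein gene with members at 5.67, 39.7 and 49.1 kb, went from 52.7 ± 8.81 to 10.3 ± 2.86 CPM (log2 −2.33). Itpkb, an inositol trisphosphate kinase gene with 2 members and 3 clustered peaks, went from 80.7 ± 25.3 to 15.5 ± 5.96 CPM (log2 −2.37). Mlph, the melanophilin gene of vesicle transport, has a member 2.48 kb from its 5′ end and went from 10.2 ± 3.38 to 0.852 ± 0.384 CPM (log2 −3.57).

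**Figure D4:**
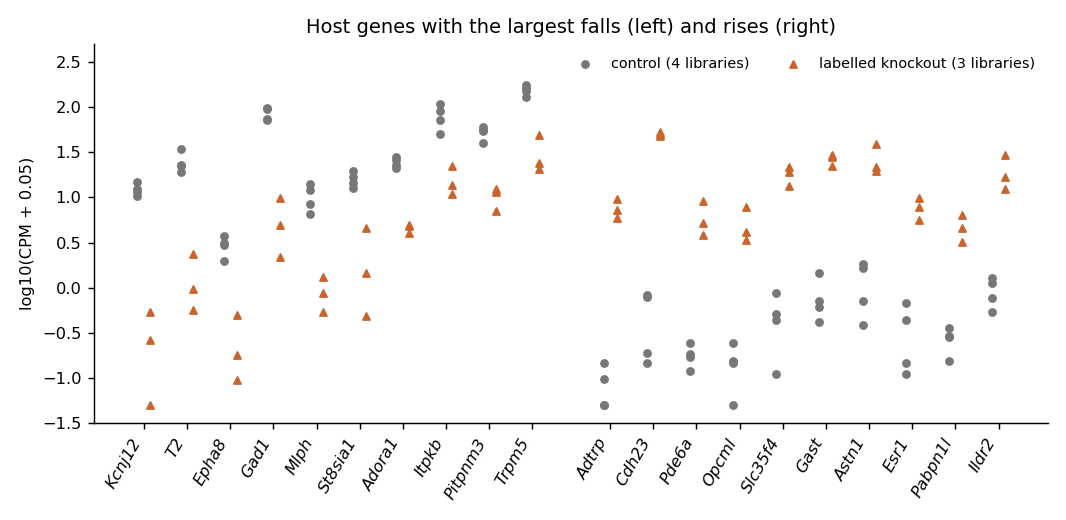
CPM in each library on a log10 scale after adding 0.05 (y axis) for the 10 hosts with the largest falls and the 10 with the largest rises (x axis), 4 control libraries as circles and 3 labelled knockout libraries as triangles. No gene's groups overlap, and 9 of the 10 risers average under 1 CPM in controls.

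Most of the largest rises were in hosts that were near absent from control islets. Cdh23, a cadherin gene of sensory hair cells, holds 5 members 72.0 to 345 kb from its 5′ end. It was at 0.1393, 0.7779, 0.7306 and 0.09572 CPM in controls and at 53.68, 48.34 and 50.13 CPM in the labelled knockouts. The labelled knockouts were close together and above every control (log2 6.74, SE 0.40, edgeR adjusted p = 1.19e-06), and without control 2 the log2 change was 7.47. Adtrp, with 1 member at 36.6 kb, had 6 control counts in total and 449 in the labelled knockouts (log2 7.16, or 8.48 without control 2). Opcml, an IgLON adhesion gene of 1134 kb with 1 member at 653 kb, went from 0.0987 ± 0.0795 to 5.09 ± 2.39 CPM (log2 5.40, or 6.00 without control 2).

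Gast, the gastrin gene, is short, at 2.59 kb, and its member at chr11:100335753-100335952 lies 1.45 kb from its 5′ end. It was at 0.5573, 0.3695, 1.400 and 0.6700 CPM in controls and at 27.70, 29.16 and 22.10 CPM in the labelled knockouts. The groups were far apart (log2 5.27, SE 0.33, edgeR adjusted p = 4.29e-07). Esr1, the estrogen receptor alpha gene, has members at 101 and 347 kb and rose from 0.293 ± 0.267 to 7.74 ± 2.14 CPM (log2 4.57, SE 0.54). Astn1, an astrotactin gene of neuronal migration, rose from 1.09 ± 0.701 to 26.9 ± 10.8 CPM (log2 4.67, or 5.34 with the acinar markers as a covariate). Pde6a, Slc35f4, Pabpn1l and Ildr2 rose by log2 values of 4.39 to 5.51.

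The hosts with most members did not move together. Bc1 heads the count with 17, but its span in the count table is 672 kb, against 154 bp in RefSeq, and 12 of the 17 also lie in another gene. It had 2 counts over all libraries and was not tested. Over the table, 100 spans exceeded 2 times the RefSeq span, and 18 members lay only in such spans. Maml3, a coactivator gene of Notch signalling, holds 15 members from 2.58 to 403 kb and was at 27.5 ± 2.87 and 20.7 ± 3.74 CPM with overlapping groups (edgeR adjusted p = 0.103, or 0.0367 without labelled knockout 2, and 0.0367 to 0.510 over the alternatives). Asic2, an acid-sensing ion channel gene with 14 members, was at 8.186, 8.071, 5.906 and 5.983 CPM in controls and at 27.92, 24.45 and 16.30 CPM in the labelled knockouts. It rose by 1.69 on the log2 scale (SE 0.21, edgeR adjusted p = 0.000122) with no overlap. Trappc9 holds 12 and did not pass (log2 0.30, edgeR adjusted p = 0.197). Rbfox3, a neuronal splicing factor gene, holds 11 and did not pass either (log2 −0.36, edgeR adjusted p = 0.619).

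Trio and Auts2 also hold 11 members each, and both have a peak at their own 5′ end. Trio, a guanine exchange factor gene, fell from 33.2 ± 3.51 to 23.3 ± 4.27 CPM (log2 −0.51, edgeR adjusted p = 0.0394). Its call was lost without control 1, 2 or 3 or labelled knockout 1 or 3, at edgeR adjusted p of 0.0739, 0.128, 0.0670, 0.0898 and 0.116. Auts2 fell from 24.0 ± 4.29 to 15.6 ± 1.02 CPM (log2 −0.63, edgeR adjusted p = 0.0233). That call was lost without control 2 or 3 or labelled knockout 3, at 0.0904, 0.0511 and 0.0668, and with the acinar markers as a covariate, at 0.0588. With scaling by library size alone the adjusted p was 0.320 for Trio and 0.190 for Auts2, the upper ends of ranges that began at 0.0153 and 0.00674 over the alternatives.

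**Figure D5:**
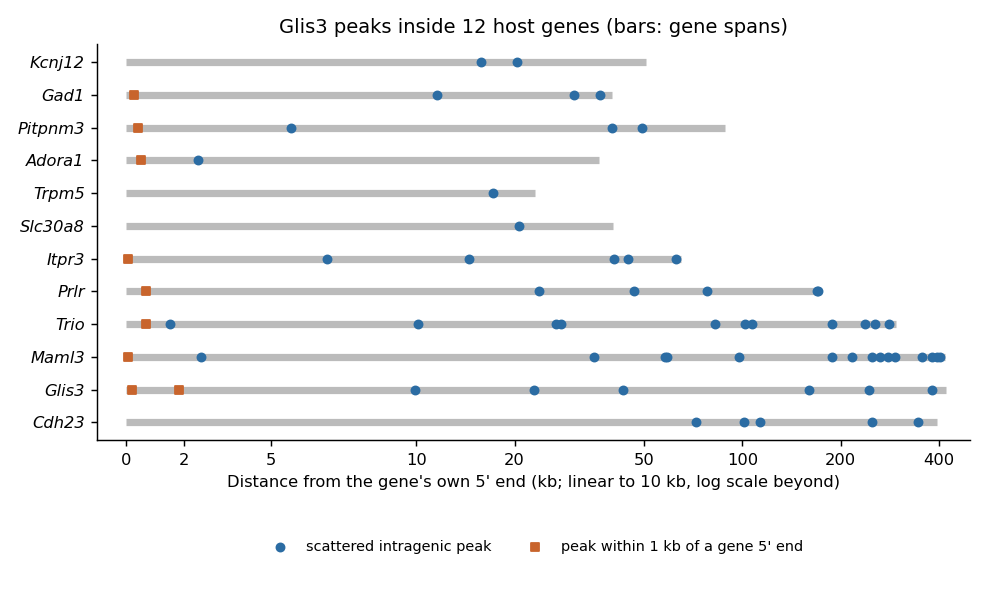
Members (circles) and peaks within 1 kb of a gene 5′ end (squares) inside 12 host genes (y axis) by distance from the gene's own 5′ end (x axis, kb, linear to 10 kb and log beyond). Grey bars are gene spans, and peaks outside a span, such as those at the 5′ ends of Kcnj12 and Slc30a8, are not drawn. The 15 members of Maml3 reach from 2.58 to 403 kb, and the 5 of Cdh23 start at 72.0 kb.

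Known islet genes were then read out from lists of related genes, against 5.25% lower and 8.73% higher over all tested genes. The same counts are given for the tested genes of each list that hold no member, and the difference between hosts and these genes was not tested. Among list hosts described below, Slc30a8, Sorl1, Rgs9, Esrrg, Rfx6, Meis1, Pam, Pcsk2, Ptprn and Itpr3 also have a peak at their own 5′ end. So do Gnas, Ift88, Ctnnd2, Ctnna2, Ncam1 and Srebf2. None of 5 genes described earlier as Glis3 targets (Ins1, Ins2, Ccnd2, Neurog3 and Srsf6) holds a member, and neither do Slc2a2, Mafa, Pdx1 or Nkx6-1. By the rule, a span of 1 kb or less cannot hold one, and peaks near 5′ ends or in chains do not count. Absence of a member is therefore not absence of Glis3 peaks. All 5 were tested, and 3 fell and 0 rose by edgeR or by DESeq2. At an unadjusted edgeR p under 0.05, 4 were lower and 0 higher. Of 24 genes for beta cell identity or glucose sensing, 9 hold 21 members. Of those 9, 3 fell (Slc30a8, Trpm5 and Prlr), 3 rose (Abcc8, Sorl1 and Rgs9) and 3 did not pass. Their median log2 change was −0.29, against 0.01 over all tested genes. The list was chosen with earlier results of these data known, and Rgs9 is also in the receptor and cAMP list. Trpm5, Abcc8 and Cacna1d are also in the ion channel list. Of hosts in the lists below, Vgf and Glis3 likewise count in more than 1 list, so the lists are not independent. Of the 15 without a member, 7 fell and 4 rose. Slc30a8, the zinc transporter gene of insulin granules, has 1 member at chr15:52316125-52316324. It was at 609.2, 571.1, 558.1 and 559.9 CPM in controls and at 297.7, 235.9 and 356.4 CPM in the labelled knockouts. The groups did not overlap (log2 −0.95, SE 0.14, edgeR adjusted p = 0.000545). Sorl1, a sorting receptor gene with 1 member at 70.7 kb, rose from 20.2 ± 2.93 to 160 ± 18.6 CPM (log2 2.99, edgeR adjusted p = 4.25e-08). Rgs9, a regulator of G protein signalling, rose from 50.7 ± 8.56 to 146 ± 24.2 CPM (log2 1.52).

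Of 27 islet transcription factors 14 hold 32 members, of which 1 fell, 4 rose and 9 did not pass (median −0.00). Of the 12 tested without a member, 4 fell and 1 rose. Besides Esr1 and Glis3, Esrrg, an estrogen-related receptor gene with 4 members, rose from 7.18 ± 2.30 to 15.7 ± 4.80 CPM (log2 1.13, edgeR adjusted p = 0.0117, lost without labelled knockout 2 at 0.0639, with a range of 0.00121 to 0.0869). Rfx6, an endocrine cell factor with a member 50.3 kb into its span, rose from 109 ± 12.7 to 149 ± 6.84 CPM (log2 0.45, edgeR adjusted p = 0.0243). That call was lost without control 1 or 4 or labelled knockout 1 or 3, at 0.0599, 0.0690, 0.0847 and 0.0612 (0.00383 to 0.0847 over the alternatives). Meis1 was the 1 that fell, from 16.0 ± 2.96 to 8.53 ± 2.20 CPM (log2 −0.90, edgeR adjusted p = 0.0138). With the acinar markers as a covariate, Meis1 (0.0558), Esrrg (0.0869), Rfx6 (0.0786) and Glis3 (0.107) all lost their calls by edgeR adjusted p. Their log2 changes in that fit were −0.86, 0.95, 0.46 and 0.46, against −0.90, 1.13, 0.45 and 0.52 without the covariate. The adjusted p of Meis1 ran from 0.00160 to 0.0558 over its alternatives.

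Of 32 genes of granule exocytosis and hormone processing 19 hold 48 members, and 8 rose, 1 fell and 10 did not pass (median 0.22). Of the 13 without a member, 5 rose and 3 fell. Vgf, a granule neuropeptide precursor gene of 3.06 kb with 1 member 2.46 kb from its 5′ end, was at 27.55, 31.95, 33.36 and 32.35 CPM in controls and at 475.2, 688.1 and 475.3 CPM in the labelled knockouts. Every labelled knockout was above every control (log2 4.13, SE 0.16, edgeR adjusted p = 6.63e-09). The peptide-processing genes Pam (4 members, log2 1.27) and Pcsk2 (4 members, log2 0.75) and the granule membrane gene Ptprn (1 member, log2 1.45) also rose. Pcsk2 was at 3407, 3187, 3605 and 3610 CPM in controls and at 5756, 5992 and 5722 CPM in the labelled knockouts, without overlap.

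Ion channel genes held the most members of any list, a total not set against list size or gene span. The members numbered 62, in 20 of 28 genes. Of these 20, 4 fell, 2 rose and 14 did not pass (median −0.05). Of the 5 tested without a member, 2 fell and 1 rose. Besides Kcnj12 and Trpm5, Itpr3 fell, a receptor gene for inositol trisphosphate on calcium stores. Its 5 members lie 6.92, 14.5, 40.4, 44.7 and 62.4 kb from its 5′ end. It was at 77.05, 86.86, 68.31 and 71.93 CPM in controls and at 29.40, 36.98 and 31.36 CPM in the labelled knockouts, with no overlap (log2 −1.22, SE 0.13, edgeR adjusted p = 2.50e-05).

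Of 28 genes of receptor and cAMP signalling 15 hold 44 members, and 2 fell, 5 rose and 8 did not pass (median −0.23). Of the 13 without a member, 4 fell and 0 rose by edgeR (1 rose by DESeq2, and 1 was higher at an unadjusted edgeR p under 0.05). Gnas, which encodes the stimulatory G protein alpha subunit in an imprinted locus of overlapping transcripts, holds 3 members. It was at 1971, 1945, 2338 and 2666 CPM in controls and at 11748, 10736 and 10464 CPM in the labelled knockouts. The labelled knockouts were all above the controls (log2 2.30, SE 0.14, edgeR adjusted p = 3.70e-07), and the transcripts of the locus were not separated in the counts. Pde4d, a cAMP phosphodiesterase gene of 1302 kb with 9 members, rose from 10.8 ± 0.403 to 19.6 ± 0.995 CPM (log2 0.87, edgeR adjusted p = 0.00160).

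In the Gli, Hedgehog and cilium list 9 of 22 genes hold 17 members, and of 7 tested 1 fell, 1 rose (Glis3) and 5 did not pass (median −0.08). Of the 9 tested without a member, 0 were called in either direction by edgeR or by DESeq2, and 1 was lower and 1 higher at an unadjusted edgeR p under 0.05. Ift88, a cilium transport gene, fell from 27.9 ± 2.82 to 18.4 ± 1.18 CPM (log2 −0.60, edgeR adjusted p = 0.0121, or 0.160 scaled by library size alone, with a range of 0.00141 to 0.160). In the synaptic adhesion list 12 of 24 genes hold 27 members, with 4 higher, 0 lower and 8 not passing (median 0.18). None of the 12 was lower by DESeq2 either, and 2 were lower at an unadjusted edgeR p under 0.05. Of the 10 tested without a member, 3 rose and 1 fell. Dscam rose from 3.97 ± 1.04 to 14.5 ± 1.03 CPM (log2 1.87), and the catenin genes Ctnnd2 (log2 0.71) and Ctnna2 (log2 0.92, edgeR adjusted p = 0.00870, or 0.0576 with the acinar markers as a covariate, the highest of its alternatives) rose as well. Ncam1 rose from 149 ± 23.6 to 218 ± 11.3 CPM (log2 0.55, edgeR adjusted p = 0.0140). Its call was lost without labelled knockout 1 (0.0514) or 3 (0.0611) or with the acinar covariate (0.0540), and its adjusted p ran from 0.000382 to 0.0611 over the alternatives.

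Of 22 genes of cholesterol and fatty acid synthesis 9 hold 13 members, and 3 fell, 1 rose and 5 did not pass (median −0.27). Of the 13 without a member, 8 fell and 1 rose. Srebf1 and Srebf2, which encode transcription factors of lipid synthesis, hold 1 member each, 10.2 and 37.9 kb from their 5′ ends. Srebf1 was at 102.5, 121.5, 106.8 and 101.5 CPM in controls and at 61.26, 67.73 and 48.01 CPM in the labelled knockouts. It fell without overlap (log2 −0.87, SE 0.14, edgeR adjusted p = 0.000641), and its member is near another RefSeq start. Srebf2 fell from 92.1 ± 14.4 to 49.6 ± 9.40 CPM (log2 −0.90). Elovl6, a fatty acid elongase gene with a member 1.53 kb from its 5′ end, rose from 37.7 ± 4.70 to 50.9 ± 5.67 CPM (log2 0.43, edgeR adjusted p = 0.0427). That call was lost without control 1, 2 or 3 or labelled knockout 1 or 2, at 0.104, 0.126, 0.0748, 0.136 and 0.0969. With the acinar covariate it was 0.134, and 0.136 was the highest of its alternatives. Of 11 genes of dedifferentiation and hyperglycaemia 3 hold a member each, of which Gast and Vgf rose and Fev did not pass (log2 −0.56, edgeR adjusted p = 0.112, or 0.0431 without control 2, and 0.0431 to 0.284 over the alternatives). Of the 8 without a member, 7 rose and 0 fell by edgeR or by DESeq2, and 1 was lower at an unadjusted edgeR p under 0.05.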

How the data were processed

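Islet RNA was sequenced in 4 control and 3 labelled knockout libraries and Glis3 binding in 1 library. The authors deposited whole-number counts per gene with mm10 gene spans, per the file headers, and a list of 200 bp peaks without a score. The submitters' processing notes name STAR 2.5, featureCounts 1.5.0-p1, Bowtie 1.2, HOMER 4.9.1 and bedtools 2.24.0; no source used here gives the settings, the strand option or the use of the input. No step was run on reads, and the input library was not analysed here.

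Counts were filtered with filterByExpr, scaled by TMM and tested in edgeR 4.0.16 (robust quasi-likelihood fit, R 4.3.3), with Benjamini-Hochberg adjustment over all 14529 tested genes. SE is the absolute log2 change divided by the square root of F. The labels' design text gives 1 mouse per RNA library. Pairs of libraries in a group differed by a chi-square of 23.4 to 95.4 per degree of freedom, so none was a copy. Libraries with the same number deviated together (correlations 0.173, 0.117 and 0.117), though control 4 and labelled knockout 3 did so too (0.157) and no label names a shared litter or day; a fit with the number as a block is an alternative. All 988 repeated symbols were kept as separate genes, and strandedness was not stated, so antisense or overlapping genes share reads.

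Start sites, gene types and sequences came from RefSeq (GRCm38.p6), where 25526 of 25611 Entrez identifiers were found; the 187 members on chromosome 18 were not compared with these starts. No genome sequence was used here, so motifs were searched only in RefSeq promoter windows of 250 bases before to 50 after a start. The scripts were tested on simulated data. The members and lists were chosen with earlier results of these data known. Named are Glis3, called hosts with the 10 largest falls and the 10 largest rises, given 1 CPM or more and no overlap, the hosts ranking in the top 6 by members, with ties, and up to 4 called hosts per list by p. Dact2, Prlr, G6pc2, Frmd4b, Vwa5b2 and Fev were added with their values known. Some genes that the naming rule picks are not reported here.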

Additional observations from a re-analysis of the deposited data

How the results depend on the processing

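Hosts were lower more often than all tested genes in the fit as reported and in each of 15 alternatives, by 1.81 to 2.48 times. For higher calls the ratio was 1.05 (library size alone) to 1.41. With scaling by library size alone, 324 of all genes and 163 hosts were lower. With the acinar markers as a covariate, 447 of all genes were lower. At an adjusted p under 0.01, 336 of all genes were lower and 731 higher, and 167 hosts were lower and 193 higher. Leaving out 1 library at a time gave 541 to 825 lower and 934 to 1142 higher over all genes, and 235 to 299 lower and 250 to 285 higher in hosts. With the replicate block, 803 of all genes were lower and 1385 higher, and 336 hosts were lower and 303 higher; of the named genes, the block changed the call of Glis3 alone. Trappc9 passed with library size alone and G6pc2 with DESeq2 (adjusted p = 0.0280). Other forms of the rule gave 4063 to 5940 members in 2807 to 3473 hosts, with 9.96% to 11.4% lower and 10.8% to 11.6% higher. Of these, leaving out over-long spans and members near RefSeq starts were chosen after seeing the data. No named gene whose change is given turned direction under any alternative fitted. The motif search over all peaks, with its alternatives, was not run, and the peaks carry no score for a stricter threshold. The binding data are 1 library, so its error is unknown. In genes with few counts, such as Adtrp with 6 in controls, the size of the change rests on single reads.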
